A study of Homo sapiens with 6 samples.

Results

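Keratin transcripts were followed in the established colorectal carcinoma line HCT116, with SETD8 overexpressed or with an empty vector. The 10 genes were KRT7, KRT8, KRT80, KRT81 and KRT86 of type II and KRT17, KRT18, KRT19, KRT20 and KRT23 of type I. They were chosen by name, as the entries of the deposited count table whose Ensembl gene IDs carry these symbols in GENCODE release 29, and are 10 of 58735 genes. SETD8, encoded by KMT5A, is an enzyme that methylates lysines, and the title of the series concerns its methylation of the coactivator YAP. Both groups had 3 libraries, named here SETD8 replicates 1 to 3 and Vector replicates 1 to 3. The labels give the genotype as SETD8 overexpression in the one group and WT in the Vector group. Cells of both groups had received a lentiviral construct, SETD8 or the empty Vector, followed by puromycin selection of stable clones. The design text speaks of transfection instead, and neither text says how many clones each group held. Separate cultures are not stated for the replicates, so the spread behind each p-value may be technical.

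Keratins are the intermediate filament proteins of epithelial cells. An acidic type I chain pairs with a basic type II chain, and the pairs assemble into filaments that are anchored at desmosomes and give the cell layer its mechanical strength. Simple epithelia such as the lining of the colon use KRT8 and KRT18 as their basic pair, joined by KRT19 and, in differentiated intestinal cells, KRT20. Stratified epithelia, skin and hair use other pairs, so the keratins a cell makes are widely used to tell epithelia apart. RNA was measured in bulk, so fewer cells of a type and less RNA per cell cannot be told apart.

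Each library held 17056672 to 20471843 counts, and 3 counts stood at 0.15 to 0.174 CPM (the count relative to library size), a floor that covers counting error only. CPM values are scaled by TMM, which corrects for differences in RNA composition. A low-count filter left 14370 genes for the test. The SETD8 libraries lay close together, with root mean square log2 differences of 0.373 to 0.378 between pairs. Vector replicate 1 differed from them by 0.397 to 0.421 and from Vector replicates 2 and 3 by 0.418 and 0.487, so it stood nearer to the SETD8 libraries than to Vector replicate 3. KMT5A had 65.4, 66.2 and 75.5 CPM in SETD8 replicates 1 to 3, against 46, 47.3 and 53.9 CPM in Vector replicates 1 to 3. The groups did not overlap, in the direction the labels give (log2 fold change 0.49 with an SE of 0.10, edgeR adjusted p = 0.0156). The call was lost when SETD8 replicate 1, 2 or 3 was left out (adjusted p = 0.0661, 0.0579 and 0.0949) or Vector replicate 2 (0.0965). Of the colon epithelium markers, EPCAM, CDH1 and CDX2 passed the filter, while VIL1, CDX1, LGALS4, CDH17, GPA33 and CEACAM5 did not. EPCAM averaged 262 ± 2.69 CPM in SETD8 cells and 261 ± 12.9 CPM in Vector cells (SD, n = 3 each). Summed fibroblast markers reached 3.5 to 4.83 CPM in SETD8 cells and 4.8 to 7.2 CPM in Vector cells, summed endothelial markers 1.34 to 1.91 and 1.25 to 2.42 CPM, and summed leukocyte markers 0.349 to 0.477 and 0.288 to 1.05 CPM.

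How surely a count belongs to one keratin differs between these genes, so the sequence shared between genes is given first. In windows of 50 bases along each gene's principal GENCODE transcript (GRCh38), KRT20 and KRT23 shared 0% with the transcripts of any other gene. KRT80 shared 0.42%, KRT7 0.997% and KRT19 1.79%. The share was 44.6% for KRT81, 40.5% for KRT86, 32.7% for KRT8 and 31.8% for KRT18. In windows of 100 bases it dropped to 5.92% for KRT8 and 0% for KRT18, but stayed at 30.3% for KRT81 and 28% for KRT86. KRT81 and KRT86 are hair keratin genes on opposite strands. KRT81 lies within the annotated span of KRT86, with 0 shared exon bases. Identical bases filled 90.1% of the columns of the coding alignment of KRT81 and KRT86, gaps included. Their longest identical coding run was 605 bases.

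KRT8, the main type II keratin of simple epithelium (chromosome 12, 52897187 to 52949954), was the most abundant keratin. It had 6515, 5915 and 6480 CPM in SETD8 replicates 1 to 3, against 7316, 7123 and 5652 CPM in Vector replicates 1 to 3. The lowest value of all was that of Vector replicate 3, and the groups overlapped (log2 fold change -0.09, 95% interval -0.34 to 0.17, edgeR adjusted p = 0.681). KRT18, its type I partner, lies next to KRT8 on chromosome 12 (52948871 to 52952901), away from the other type I genes on chromosome 17. KRT18 had 2029, 1706 and 1922 CPM in SETD8 replicates 1 to 3, against 2261, 2398 and 1978 CPM in Vector replicates 1 to 3. SETD8 replicate 1 stood above Vector replicate 3, so the groups overlapped, and the difference did not pass the test (log2 fold change -0.23, interval -0.46 to 0.00, edgeR adjusted p = 0.193). Without Vector replicate 3 it passed (-0.30, adjusted p = 0.0284). KRT19, the smallest keratin, which lacks the usual tail domain (chromosome 17, 41523617 to 41528308), ran the other way in sign. It had 3803, 3264 and 3305 CPM in SETD8 replicates 1 to 3, against 3334, 3305 and 2731 CPM in Vector replicates 1 to 3. Values overlapped, with SETD8 replicate 1 highest and Vector replicate 3 lowest (log2 fold change 0.15, interval -0.10 to 0.39, edgeR adjusted p = 0.433).

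KRT8 and KRT18 are rich in pseudogenes and their own exons overlap by 525 bases on opposite strands, which is 7.63% of the KRT8 exon sequence and 16.3% of that of KRT18. The sources used here do not say whether the counting used strand, so reads from that stretch are uncertain. The table held 51 KRT8 pseudogenes, 13 of them with any count. Together they had 321, 277 and 289 counts in SETD8 replicates 1 to 3 and 345, 431 and 235 counts in Vector replicates 1 to 3. That was 0.242% to 0.261% of the KRT8 count in SETD8 libraries and 0.24% to 0.302% in Vector libraries. The 67 KRT18 pseudogenes, 17 of them with any count, had 6 to 15 counts per SETD8 library and 14 to 23 per Vector library. The most abundant copies were KRT8P3 (12 ± 1.26 CPM in SETD8 cells, 15 ± 4.18 in Vector cells, SD, n = 3 each, edgeR adjusted p = 0.293) and KRT8P12 (1.74 and 1.34 CPM, adjusted p = 0.545), while KRT18P5 and KRT18P55 fell below the filter. Summing all these counts into the parent genes left the log2 fold changes of KRT8 and KRT18 as they were. The counts were too few for that sum to move the values. The handling of multiply mapped reads is not given, so reads shared with pseudogenes may be missing from these counts.

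**Figure D1:**
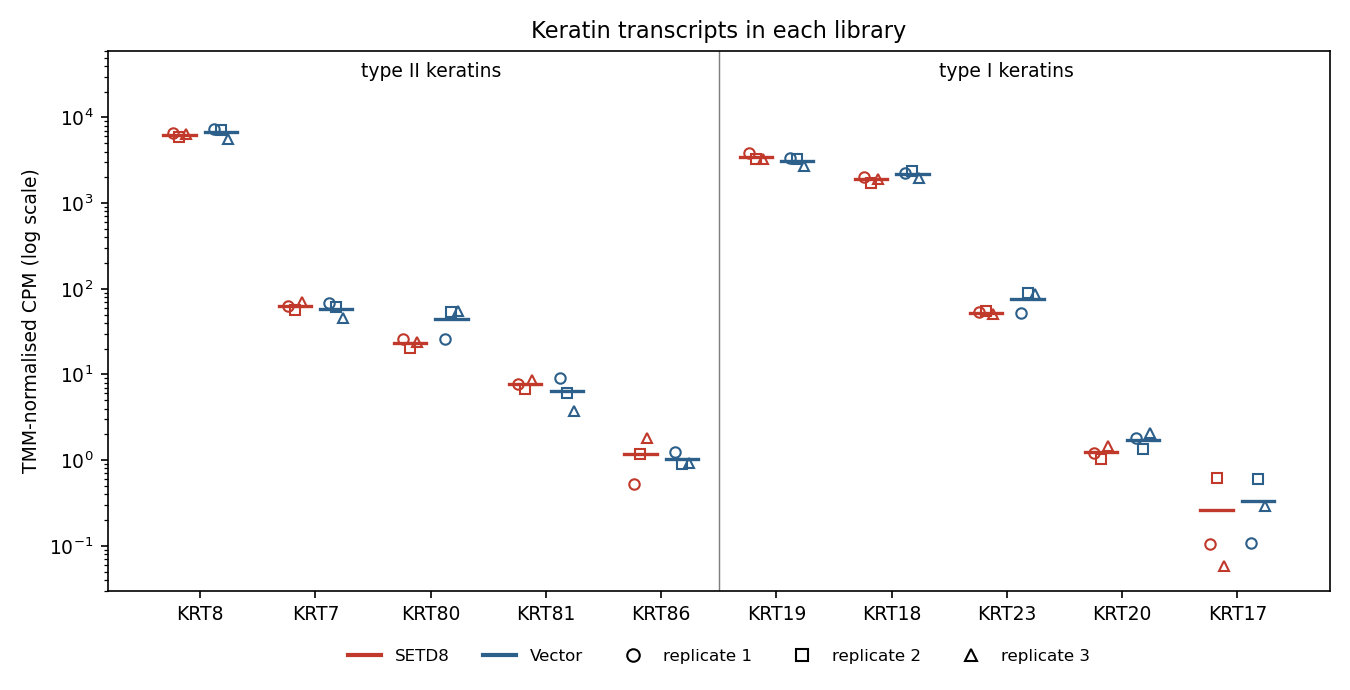
TMM-normalised CPM (log scale) of the 10 keratins in each library, type II on the left and type I on the right, with SETD8 left of Vector for each gene; bars are group means. KRT8, KRT19 and KRT18 lie between 1706 and 7316 CPM in every library, KRT7, KRT80 and KRT23 between 20.1 and 89.7, and KRT17 below 1.

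KRT8, KRT18 and KRT19 together made up 98.7% to 98.8% of the counts of the 10 genes in SETD8 libraries and 98.2% to 98.8% in Vector libraries. The 10 genes took 1.13% to 1.26% of all counts in SETD8 libraries and 1.07% to 1.28% in Vector libraries. Their summed level averaged 11796 ± 739 CPM in SETD8 cells and 12221 ± 1443 CPM in Vector cells (SD, n = 3 each), a ratio of 0.965. For type I genes the sums were 5397 ± 442 and 5414 ± 538 CPM, and for type II genes 6399 ± 346 and 6807 ± 914 CPM. Differences between the groups in these sums were smaller than the spread between Vector libraries.

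Levels of different genes are compared per kilobase of the principal transcript. KRT8 stood at 2965 ± 158 CPM per kb in SETD8 cells and 3150 ± 428 in Vector cells, KRT19 at 2487 ± 216 and 2247 ± 245, and KRT18 at 1207 ± 105 and 1416 ± 137 (SD, n = 3 each). Library ranges of these 3 genes did not overlap within either group. KRT7 followed at 36 ± 3.88 CPM per kb in SETD8 cells and 33.4 ± 6.72 in Vector cells, and KRT23 at 26.6 ± 1.19 and 38.5 ± 10.6. Their ranges lay apart in SETD8 cells (32 to 39.7 for KRT7, 25.3 to 27.7 for KRT23) and overlapped in Vector cells (26.1 to 39.3 and 26.2 to 45.2). KRT80 stood at 6.04 ± 0.744 and 11.5 ± 4.16 CPM per kb in SETD8 and Vector cells, and KRT81 at 3.99 ± 0.445 and 3.29 ± 1.41. KRT20, KRT86 and KRT17 averaged at most 1 CPM per kb in either group. KRT20 and KRT86 overlapped in SETD8 cells but not in Vector cells. By the mean over all libraries of both groups, KRT8, KRT19, KRT18, KRT7 and KRT23 held the 5 highest levels per kb of the 54 keratin genes. In SETD8 cells alone, KRT15 averaged 28.5 CPM per kb and stood above KRT23. The rank of KRT15 depends on its long principal transcript, of 5237 bases with 1368 coding. Before division by length, KRT15 stood above both KRT7 and KRT23, at 149 CPM in SETD8 cells and 130 CPM in Vector cells.

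Levels of the 3 abundant keratins overlapped between the groups, but the ratios of KRT19 to KRT18 and of KRT8 to KRT19 did not. Of all single genes tested, 30.3% had groups that did not overlap, and no such share was worked out for ratios. The ratio of KRT19 to KRT18 per kb was 2.11, 2.15 and 1.93 in SETD8 replicates 1 to 3, against 1.66, 1.55 and 1.55 in Vector replicates 1 to 3. All SETD8 values lay above all Vector values (2.06 ± 0.115 and 1.59 ± 0.0616, SD, n = 3 each). KRT8 over KRT19 was 1.12, 1.18 and 1.28 in SETD8 replicates 1 to 3, against 1.43, 1.41 and 1.35 in Vector replicates 1 to 3. Here all SETD8 values lay below all Vector values. KRT8 over KRT18, the ratio of the primary pair, was 2.36, 2.55 and 2.48 in SETD8 libraries and 2.38, 2.18 and 2.1 in Vector libraries, and the groups overlapped. The ratio of all type II to all type I genes also overlapped, at 0.811 ± 0.0435 in SETD8 cells and 0.862 ± 0.0386 in Vector cells. So did the other ratios taken, KRT80 over KRT8, KRT23 over KRT18 and KRT81 over KRT7. Ratios within a library do not depend on the scaling between libraries, but can depend on a correction for transcript length. With that correction the log2 fold change was -0.04 for KRT8, 0.01 for KRT19 and -0.30 for KRT18, against -0.09, 0.15 and -0.23 without it. The fold changes of KRT8 and KRT19 thus came close to each other and those of KRT19 and KRT18 somewhat closer, while those of KRT8 and KRT18 moved apart. The ratios themselves were not recomputed, so whether they still separate the groups with the correction is not known. They were not tested, since the genes were chosen with results known and an exact permutation test of 3 against 3 cannot go below p = 0.1.

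**Figure D2:**
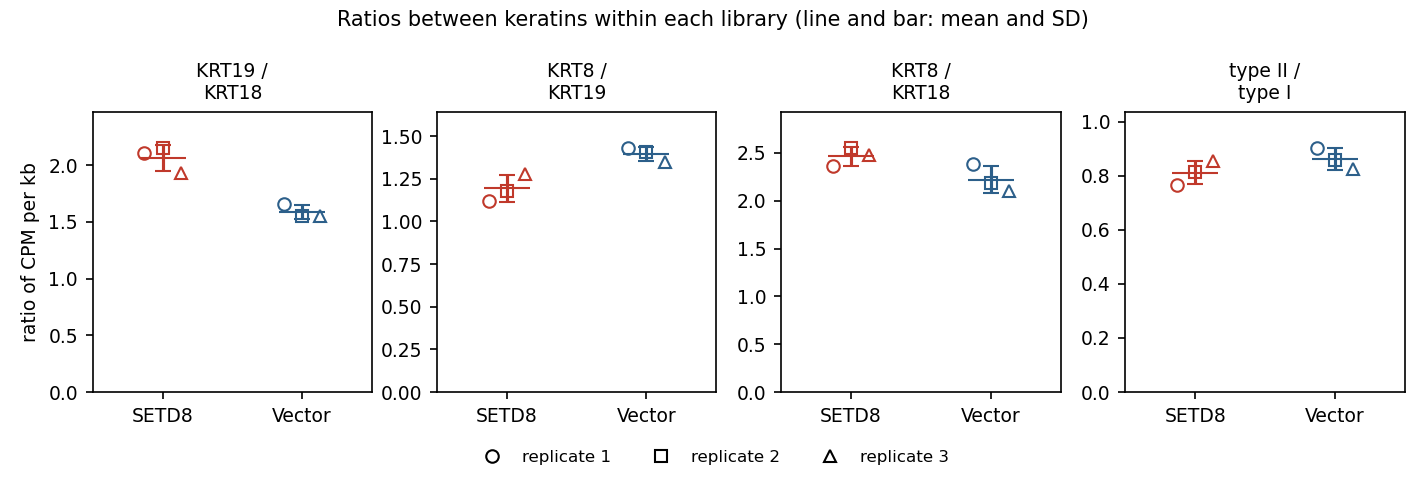
Ratios of CPM per kb between keratins in each library, SETD8 left of Vector; lines and bars are the mean and SD of 3 libraries. KRT19 over KRT18 lies at 1.93 to 2.15 in SETD8 libraries and 1.55 to 1.66 in Vector libraries, while KRT8 over KRT18 and type II over type I overlap.

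KRT80 was the only 1 of the 9 tested keratins that passed the test, which called 7.83% of all 14370 genes (3.08% higher, 4.75% lower). This type II keratin, found in many epithelia and described near desmosomes, lies on chromosome 12 (52168996 to 52192000, minus strand). It had 25.7, 20.1 and 24 CPM in SETD8 replicates 1 to 3, against 25.9, 53 and 54.4 CPM in Vector replicates 1 to 3. In TMM-scaled CPM the groups did not overlap, but only just, since Vector replicate 1 stood just above SETD8 replicate 1. Counts were 486, 389 and 413 in SETD8 replicates 1 to 3 and 475, 1062 and 944 in Vector replicates 1 to 3. By count SETD8 replicate 1 stood above Vector replicate 1, from a smaller library total (18785454 against 19031153). Without the TMM scaling the groups thus overlapped. On average KRT80 fell to 23.3 ± 2.87 CPM in SETD8 cells, against 44.4 ± 16.1 CPM in Vector cells (SD, n = 3 each). That is a log2 fold change of -0.93 (SE 0.24, 95% interval -1.47 to -0.39), or 1.91-fold lower, with an edgeR adjusted p of 0.0457. The coefficient of variation was 12.3% in SETD8 cells and 36.2% in Vector cells.

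That call rested close to the threshold of 0.05. Removing Vector replicate 1 moved the log2 fold change to -1.21 (edgeR adjusted p = 6.76e-07). Removing Vector replicate 2 or 3 left -0.78 (adjusted p = 0.147) and -0.76 (0.346), and removing SETD8 replicate 1, 2 or 3 left -1.01, -0.83 and -0.95 (0.123, 0.128 and 0.123). DESeq2-type size factors gave an adjusted p of 0.0537 and DESeq2 itself 0.0595, and 7 of 10 other settings in all ended the call. Those settings include summing in the pseudogenes of KRT8 and KRT18, which does not change the counts of other keratins. KRT80 stayed negative in all 16 alternatives run. Leaving out a library could hardly change that sign, since the groups did not overlap in TMM-scaled CPM.

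KRT23, a type I keratin on chromosome 17 (40922696 to 40937634, minus strand) named among keratins of digestive tract tumours, had the same pattern across libraries. It had 53, 55 and 50.3 CPM in SETD8 replicates 1 to 3, against 52.1, 89.7 and 87.5 CPM in Vector replicates 1 to 3. Vector replicate 1 stood within the SETD8 range, and the other Vector libraries stood above it. KRT23 averaged 52.8 ± 2.36 CPM in SETD8 cells and 76.4 ± 21.1 CPM in Vector cells (SD, n = 3 each), and missed the threshold (log2 fold change -0.53, SE 0.17, interval -0.90 to -0.17, edgeR adjusted p = 0.0711). It passed with DESeq2 (adjusted p = 0.0173), with the replicate number as a block (0.0483), with no low-count filter (7.35e-05) and without Vector replicate 1 (log2 fold change -0.75, adjusted p = 9.46e-06). A gene annotated antisense to KRT23 shared 186 bases of exon with it and had 9 to 26 counts per library, against 865 to 1798 for KRT23. In KRT80 and KRT23 alike, Vector replicate 1 was level with the SETD8 libraries, and both differences were larger without it. Over all genes, Vector replicate 1 lay about as far from the SETD8 libraries (0.397 to 0.421) as from Vector replicate 2 (0.418).

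**Figure D3:**
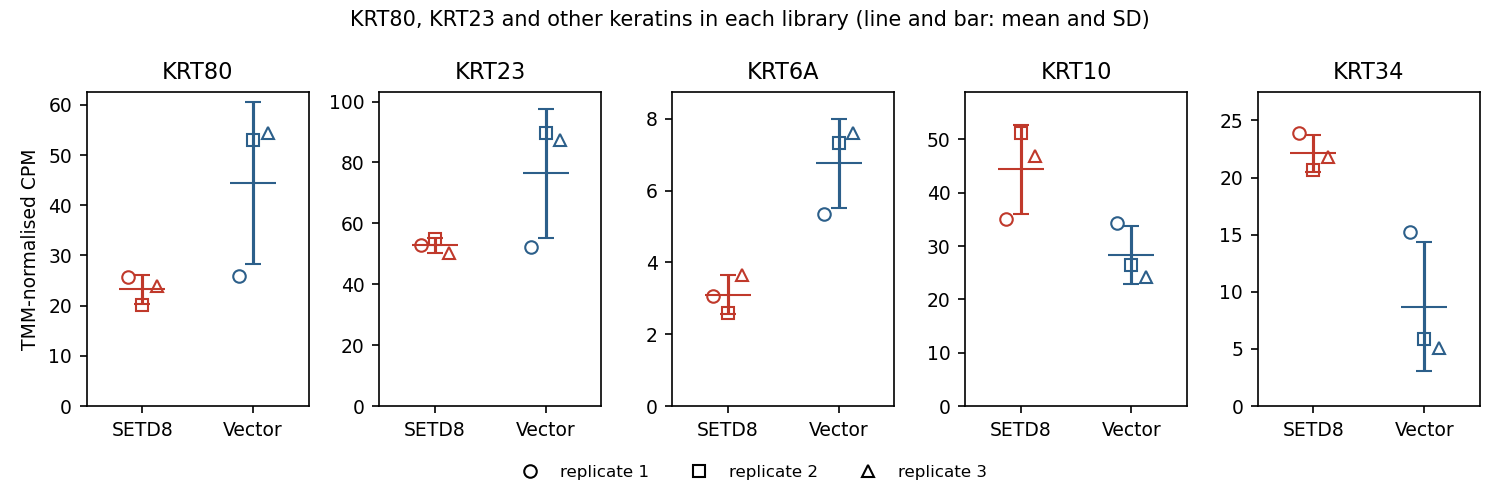
TMM-normalised CPM of KRT80, KRT23, KRT6A, KRT10 and KRT34 in each library, SETD8 left of Vector; lines and bars are the mean and SD of 3 libraries. For KRT80 and KRT23, Vector replicate 1 (circle) lies at 25.9 and 52.1 CPM, level with the SETD8 libraries, while Vector replicates 2 and 3 lie at 53 to 54.4 and 87.5 to 89.7 CPM.

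KRT7, a type II keratin of glandular and ductal epithelium (chromosome 12, 52232520 to 52252186), is sparse in normal colon. It had 63.7, 56.1 and 69.7 CPM in SETD8 replicates 1 to 3, against 69, 61.2 and 45.8 CPM in Vector replicates 1 to 3. Vector replicate 3 was lowest and the groups overlapped (log2 fold change 0.11, interval -0.19 to 0.40, edgeR adjusted p = 0.661). KRT20, the type I keratin of differentiated intestinal epithelium, is a marker of colorectal origin in pathology (chromosome 17, 40875941 to 40885227). It was scarce in both groups, with 23, 20 and 25 counts in SETD8 replicates 1 to 3 and 33, 27 and 36 counts in Vector replicates 1 to 3. In CPM these were 1.22, 1.04 and 1.45 in SETD8 libraries and 1.8, 1.35 and 2.07 in Vector libraries, which overlapped through SETD8 replicate 3 and Vector replicate 2. At that depth the interval was wide (log2 fold change -0.49, -1.21 to 0.23, edgeR adjusted p = 0.377).

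KRT81 and KRT86, type II keratins of the hair cortex, were both present at low levels, with reads that are uncertain between them. KRT81 had 7.68, 6.83 and 8.55 CPM in SETD8 replicates 1 to 3, against 9.16, 6.14 and 3.75 CPM in Vector replicates 1 to 3. Vector libraries held both the highest and the lowest value (log2 fold change 0.27, interval -0.28 to 0.82, edgeR adjusted p = 0.529). Without Vector replicate 1, KRT81 passed the test (0.62, adjusted p = 0.0452). KRT86 had 10, 23 and 31 counts in SETD8 replicates 1 to 3 and 23, 18 and 16 counts in Vector replicates 1 to 3. SETD8 libraries held both the lowest and the highest of these counts (log2 fold change 0.19, interval -0.77 to 1.14, edgeR adjusted p = 0.827). A read from within the 605 identical bases cannot be assigned to KRT81 or KRT86 by sequence alone.

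KRT17, a type I keratin of basal cells and of wounded skin (chromosome 17, 41619441 to 41624842), did not pass the low-count filter. Its counts were 2, 12 and 1 in SETD8 replicates 1 to 3 and 2, 12 and 5 in Vector replicates 1 to 3. SETD8 replicates 1 and 3 and Vector replicate 1 lay below the floor of 3 counts, and no fold change is given.

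Of the 10 keratins, 9 were tested, and the test called 0 higher and 1 lower. In TMM-scaled CPM, KRT80 was also the only 1 of the 9 whose groups did not overlap, against 30.3% of all genes tested. The separation of KRT80 was lost without the TMM scaling. Log2 fold changes of the 9 ran from -0.93 to 0.27 with a median of -0.09, 5 negative and 4 positive. The median over all genes tested was 0.00, with quartiles at -0.20 and 0.20. By type, the median was 0.11 for the 5 type II genes and -0.36 for the 4 tested type I genes. The intervals of KRT8, KRT18 and KRT19 lay within -0.46 to 0.39 on the log2 scale, whereas those of KRT20 and KRT86 reached -1.21 and 1.14.

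The other 44 keratin genes include 13 with no count in any library and 13 that were tested. Of the tested ones, 1 was higher, 2 were lower and 10 did not pass, where 3.08% of all genes tested were higher and 4.75% lower. The median log2 fold change was -0.01, and 5 of the 13 had groups that did not overlap, near the 30.3% over all genes tested. KRT10, a type I keratin of the differentiating layers of skin, had 35.1, 51.2 and 46.8 CPM in SETD8 replicates 1 to 3, against 34.4, 26.5 and 24.1 CPM in Vector replicates 1 to 3. It rose in SETD8 cells (log2 fold change 0.65 with an SE of 0.16, edgeR adjusted p = 0.0268), although Vector replicate 1 lay just under SETD8 replicate 1. KRT6A, a type II keratin induced in wounded skin, had 3.07, 2.59 and 3.66 CPM in SETD8 replicates 1 to 3, against 5.34, 7.34 and 7.61 CPM in Vector replicates 1 to 3. It fell in SETD8 cells (log2 fold change -1.12 with an SE of 0.22, edgeR adjusted p = 0.0124), and so did its close copy KRT6B, at 0.366 ± 0.187 CPM in SETD8 cells and 1.3 ± 0.424 in Vector cells (-1.83, adjusted p = 0.0426). KRT6B had only 3, 8 and 9 counts in SETD8 replicates 1 to 3 and 15, 32 and 26 counts in Vector replicates 1 to 3. SETD8 replicate 1 thus stood at the floor of 3 counts, and the size of the KRT6B fall is uncertain. Windows of 100 bases were shared with other genes for 18.2% of KRT6A and 24.6% of KRT6B. Most of these were shared with KRT6C (17.6% and 24%), which had 3 counts over all SETD8 libraries and 5 over all Vector libraries. Reads from such stretches are uncertain between these genes, and the share between KRT6A and KRT6B alone was not worked out.

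Each of these calls was lost when certain libraries were left out. KRT10 lost it without any 1 SETD8 library (edgeR adjusted p = 0.0508, 0.126 and 0.118) or Vector replicate 2 (0.131). KRT6A lost it without SETD8 replicate 1 or 2 (0.073 and 0.0665) or Vector replicate 2 (0.0872). KRT6B lost it without SETD8 replicate 1, 2 or 3 (0.17, 0.12 and 0.102) or Vector replicate 2 or 3 (0.18 and 0.0786).

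KRT34, a type I hair keratin, had the largest positive log2 fold change of the tested keratins, but did not pass. It had 23.9, 20.7 and 21.8 CPM in SETD8 replicates 1 to 3, against 15.2, 5.84 and 5.07 CPM in Vector replicates 1 to 3. The groups did not overlap, and Vector replicate 1 stood nearest to the SETD8 libraries (log2 fold change 1.35 with an SE of 0.36, edgeR adjusted p = 0.056). It passed under 5 of 10 other settings, among them DESeq2 (adjusted p = 0.0496) and limma-voom (0.0152), and without Vector replicate 1 (4.57e-08). KRT15, a keratin of basal cells, was the most abundant of the other keratins at 149 ± 21 CPM in SETD8 cells and 130 ± 11.1 CPM in Vector cells (log2 fold change 0.20, edgeR adjusted p = 0.256). KRT9, KRT13, KRT16, KRT32, KRT39 and KRT40 averaged 1.11 to 8.46 CPM in either group, and none passed the test (adjusted p = 0.309 to 0.985). KRT13, at -0.57 with all libraries, passed without Vector replicate 1 (-0.96, edgeR adjusted p = 0.0487) and stood at -0.01 without Vector replicate 2.

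**Figure D4:**
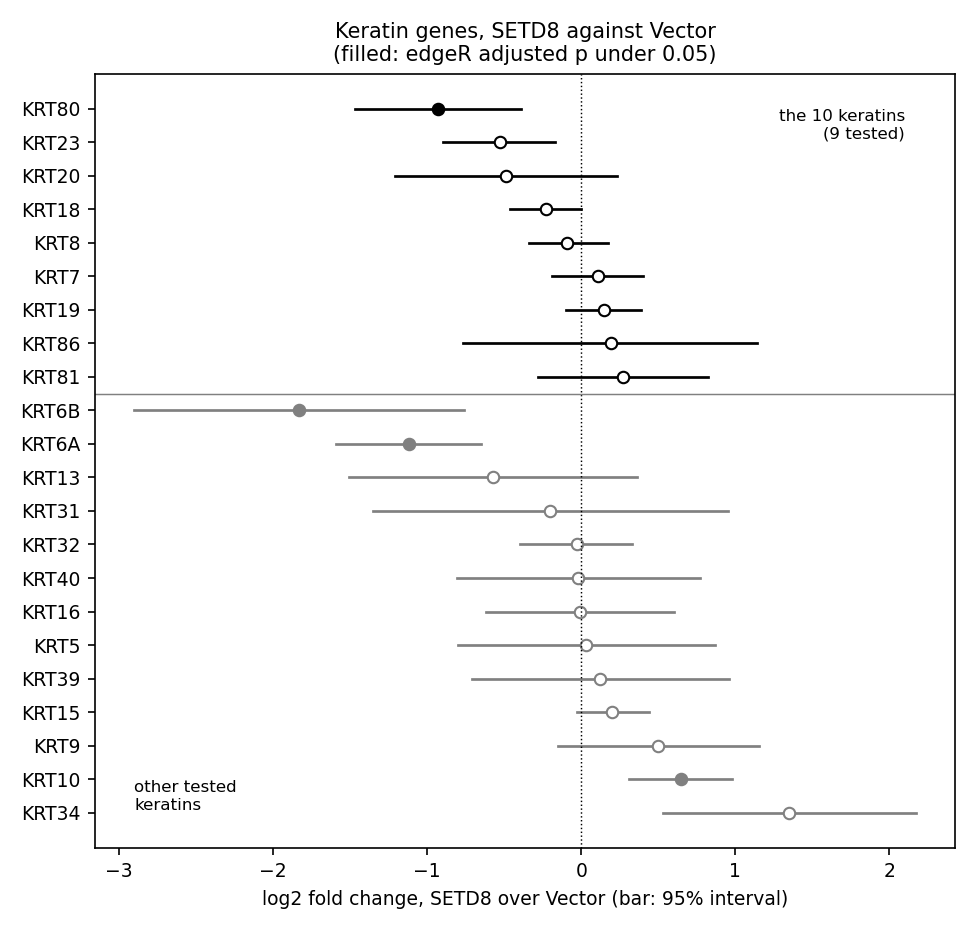
Log2 fold change (SETD8 over Vector) with its 95% interval for the 9 tested keratins of the set (black, above the line) and the 13 other tested keratins (grey); filled points had an edgeR adjusted p under 0.05. KRT80 is the only filled point above the line, and the intervals of KRT8, KRT18 and KRT19 are the narrowest of the set.

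Of the 12 genes whose proteins anchor or organise keratin filaments, 11 were tested. The test called 3 lower and 0 higher, where it called 4.75% of all genes lower and 3.08% higher. The median log2 fold change was -0.24, and 8 of the 11 had groups that did not overlap, against 30.3% of all genes tested. PLEC, which encodes plectin, the large linker of intermediate filaments, had 2046, 2109 and 2055 CPM in SETD8 replicates 1 to 3, against 2774, 2937 and 3282 CPM in Vector replicates 1 to 3. It fell clear of overlap (log2 fold change -0.53 with an SE of 0.10, edgeR adjusted p = 0.0101). PKP3, a desmosomal plakophilin, fell to 218 ± 8.8 CPM in SETD8 cells, against 299 ± 33.7 CPM in Vector cells (-0.46, adjusted p = 0.016), and the keratin-binding plakin EPPK1 fell to 24.5 ± 2.13, against 36.2 ± 3.81 (-0.56, adjusted p = 0.0164). The length correction kept these calls but moved PLEC to -0.34 and EPPK1 to -0.37. Each of these 3 calls was lost without any 1 SETD8 library (edgeR adjusted p = 0.0561 to 0.101) or Vector replicate 2 (0.0638 to 0.111). Desmoplakin (DSP), which ties keratins to desmosomes, had a log2 fold change of -0.29 and did not pass (adjusted p = 0.0946). For the colon epithelium marker CDH1, the adherens junction cadherin, CPM fell to 80.7 ± 5.43 in SETD8 cells, against 117 ± 21.5 in Vector cells (-0.54, adjusted p = 0.0218), and the call was lost without any 1 library other than Vector replicate 1 (0.0522 to 0.138).

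Among 16 genes of other intermediate filament proteins, 10 were tested, 4 were lower and 0 were higher (4.75% and 3.08% of all genes tested), with a median log2 fold change of -0.39. The eye lens filament gene BFSP1 had 9.16, 8.75 and 9.77 CPM in SETD8 replicates 1 to 3, against 11.5, 15.4 and 15.4 CPM in Vector replicates 1 to 3. It fell without overlap (log2 fold change -0.61, edgeR adjusted p = 0.0301). DES, the muscle filament gene, fell to 1.68 ± 0.58 CPM in SETD8 cells, against 4.63 ± 1.98 CPM in Vector cells (-1.47, adjusted p = 0.0285), and VIM, the mesenchymal one, fell to 0.45 ± 0.0596 CPM, against 1.39 ± 0.266 CPM (-1.60, adjusted p = 0.0323). NES had a log2 fold change of -1.11 (adjusted p = 0.00262) and kept its call without each library in turn, while the other 3 lost theirs without any 1 SETD8 library (0.0763 to 0.131) or Vector replicate 2 (0.108 to 0.153). DES also lost its call with limma-voom (adjusted p = 0.0534). LMNA, which encodes the nuclear lamins A and C, did not pass (-0.13, adjusted p = 0.418).

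**Figure D5:**
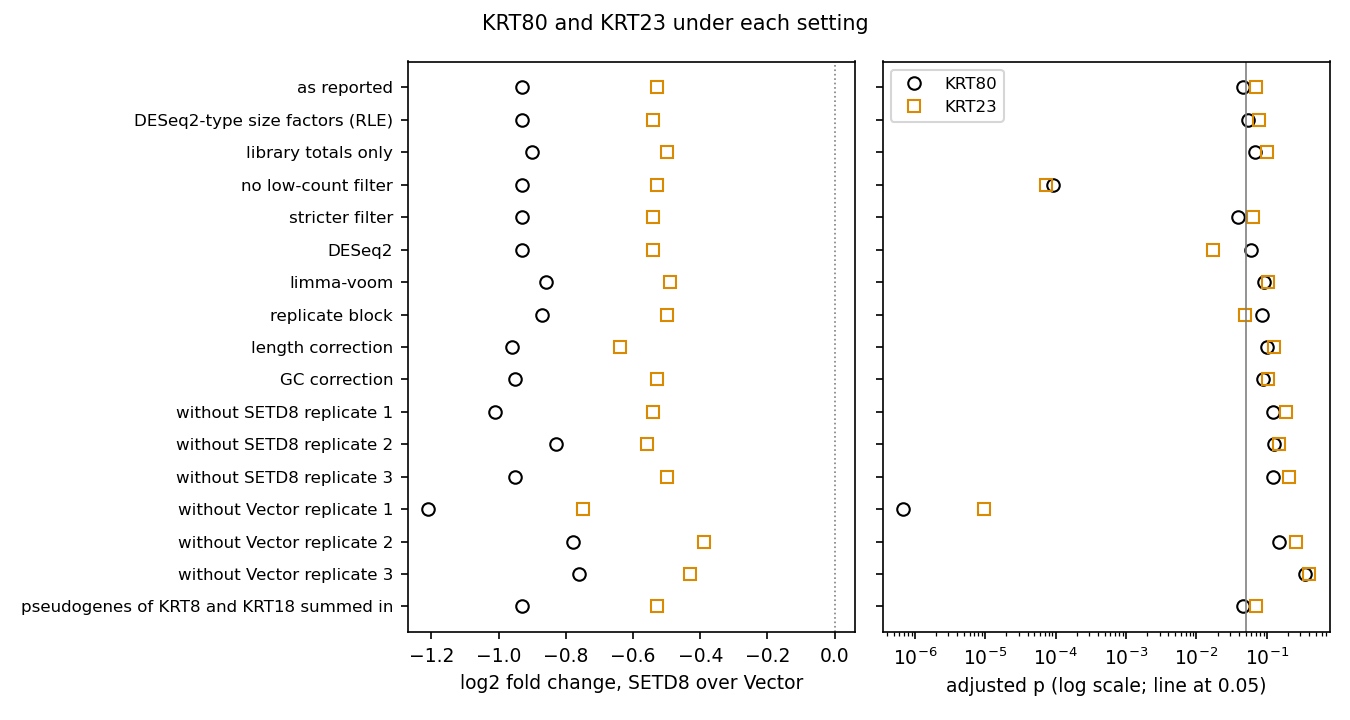
Log2 fold change (left) and adjusted p on a log axis (right, line at 0.05) of KRT80 and KRT23, SETD8 over Vector, under the reported setting (top row) and each alternative. Both genes stay negative throughout, from -1.21 to -0.76 for KRT80 and from -0.75 to -0.39 for KRT23, and both have their lowest adjusted p without Vector replicate 1.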

How the data were processed

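The authors deposited raw read counts per gene in whole numbers, from poly(A)-selected, stranded TruSeq libraries, per the labels' protocols. Per the submitters' processing notes, tools were STAR, HISAT2, HTSeq and featureCounts on GRCh38, without roles, and the sources used here do not give the strand setting or the handling of multiply mapped reads. Columns named NC with a number were taken as the Vector replicates, being the only columns outside SETD8, and 0 columns belonged to other samples. Names, positions and the transcripts used for shared windows come from GENCODE release 29 (GRCh38). One marker gene and some sequences are not reported here.

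Genes were filtered by filterByExpr, scaled by TMM and compared in R 4.3.3 by the two-sided quasi-likelihood test of edgeR 4.0.16 (robust). P-values were adjusted by Benjamini-Hochberg over 14370 genes, with a threshold of 0.05. "Called" or "passed" means below it. The SE is the log2 fold change over the square root of F. Tested genes held 99.9% of counts. Alternatives were DESeq2-type size factors, library totals, no filter, a stricter one (1 CPM throughout a group), limma-voom (limma 3.58.1), DESeq2 1.42.0, a replicate block, lowess length and GC corrections, pseudogenes summed in, and leaving out each library. Figures used matplotlib 3.10.9.

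The keratins and the gene lists were chosen with earlier results of these data known. Named genes were the 10 keratins, KMT5A, every called gene of the other lists, other keratins averaging 1 CPM or more in either group, and the 2 most abundant pseudogenes of KRT8 and of KRT18. DSP, LMNA and EPCAM were named after their values were seen.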

Additional observations from a re-analysis of the deposited data

How the results depend on the processing

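Over all genes, 1125 were called (443 higher, 682 lower), against 2000 with no low-count filter and 11 to 3509 when 1 library was left out, 11 without SETD8 replicate 1 and 3509 without Vector replicate 1. Scaling by library totals gave 792 higher and 505 lower and moved the median of all genes by 0.04. Deviations of same-numbered libraries from their group means correlated at 0.025, 0.008 and -0.064, so no pairing by replicate number was seen. Deviations within groups of 3 libraries are a coarse measure, and a shared culture or batch was not tested. The replicate block called 1177 genes, moved KRT23 to -0.50 (past the threshold) and KRT80 to -0.87 (no longer past it). KRT80 also lost its call at -0.93 with DESeq2-type size factors and with DESeq2, -0.90 with library totals, -0.86 with limma-voom, -0.96 with the length and -0.95 with the GC correction. Leaving out 1 library gave -1.21 to -0.76 for KRT80. KRT23 passed at -0.53 with no filter and -0.54 with DESeq2, and ranged from -0.75 to -0.39 with 1 library left out. Under the same leave-outs, KRT18 ranged from -0.30 to -0.16, KRT81 from 0.01 to 0.62 and KMT5A from 0.42 to 0.57, while KRT7 (-0.04 to 0.23) and KRT86 (-0.25 to 0.54) changed sign, as did KRT16 (-0.25 to 0.17), KRT32 (-0.15 to 0.05), KRT39 (-0.15 to 0.30) and KRT40 (-0.16 to 0.16), none of them called. Signs also changed for KRT16 with library totals (0.03), limma-voom (0.04) and the block (0.02), for KRT32 (0.01) and KRT40 (0.03) with library totals and for KRT39 with the length correction (-0.03). The cause was not tested. KRT86, KRT40 and the called KRT6B had no adjusted p under the stricter filter or DESeq2. The called VIM had an adjusted p under 9 of the 10 other settings. Depth limits KRT17, KRT20 and KRT86, and likewise the called genes KRT6B and VIM, all with at most 36 counts per library.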

Other observations

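Among 23 regulators of epithelial identity and of keratin genes, 19 were tested, 3 were lower and 0 were higher in SETD8 cells (4.75% and 3.08% of all genes tested), with a median log2 fold change of -0.02. FOSL1, an AP-1 subunit, fell to 285 ± 15 CPM in SETD8 cells, against 383 ± 20.6 CPM in Vector cells (SD, n = 3 each, log2 fold change -0.43, edgeR adjusted p = 0.0138). ETS1, a transcription factor, fell to 146 ± 16.6 CPM, against 199 ± 14.6 CPM (-0.44, adjusted p = 0.021), and HNF4A, a factor of intestinal and liver identity, fell to 7.26 ± 0.564 CPM, against 10.7 ± 0.423 CPM (-0.57, adjusted p = 0.035). Each of these 3 calls was lost without any 1 SETD8 library or Vector replicate 2 (edgeR adjusted p = 0.062 to 0.143). CDX2, the intestinal homeobox factor, had 31.6, 31.9 and 27.6 CPM in SETD8 replicates 1 to 3, against 32.8, 25.2 and 23.2 CPM in Vector replicates 1 to 3, and did not pass (0.16, adjusted p = 0.463). TAZ (WWTR1) was the only 1 of 6 YAP, TAZ and TEAD genes called, at 56.5 ± 5.66 CPM in SETD8 cells and 74.3 ± 10.3 CPM in Vector cells (-0.39, adjusted p = 0.0497), and it lost the call without any 1 library other than Vector replicate 1 (0.082 to 0.199), and with library totals (0.0704), limma-voom (0.0521) or the length correction (0.0632).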
